A study of Dascyllus aruanus with 17 samples.

Results

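In the brain of *Dascyllus aruanus*, a damselfish of coral reefs, 65 of 21805 transcribed features were taken as night-high. In these, every brain taken late in the night stood at least 1.3-fold above every brain taken late in the day. Named genes of the core clock, and features named SMU1 or DDIT4, were left out. A feature is a gene of a de novo transcriptome assembly, so it carries no chromosomal position, and its gene name is that of its best orthologue match. Levels are given as CPM (counts per 1000000), the deposited expected count scaled to a common library total. A feature was taken when its mean CPM was at least 1 and its lowest value over the 8 night libraries was at least 1.3 times its highest value over the 6 day libraries. Features named PER1 to PER3, CRY1, CRY2, NR1D1, NR1D2, BHLHE40, BHLHE41, CIART, TEF, DBP, HLF, NFIL3, SMU1 or DDIT4 were left out. Of the 18358 features with a mean CPM of at least 1, 78 met the level and the ratio (0.425%), and 13 of these carried a name left out. The night and day values chose these features, so their night-day differences are described here and not tested.

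Per the labels, wild fish living with their coral were held under natural light for 96 h and then kept for a further 72 h either on the natural light-dark cycle (control) or with dim white light through the dark hours (called ALAN, for artificial light at night). Sampling followed 3 such nights, at zeitgeber time 11 h, late in the light phase (day), or at 23 h, late in the dark phase (night), and each library held the brain of 1 fish. There were 3 control day brains (numbered 1, 2 and 4), 3 ALAN day brains, 4 control night brains and 4 ALAN night brains, and values are listed below in the order of these numbers. All groups were wild fish of unstated age and sex that shared the capture and the habituation, and although light was applied to whole colonies, 6 in all, the labels do not tie a fish to its colony.

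The vertebrate circadian clock is a loop in which CLOCK and BMAL proteins activate the genes of their own repressors, the period and cryptochrome proteins, whose stability is set in part by casein kinases. A second layer of proteins, among them CIPC and CIART (also called CHRONO), binds CLOCK or BMAL and lowers their activity in mammals. The loop also drives output genes in metabolism, transport and signalling, partly through transcription factors that bind D-box elements, such as DBP and TEF. In zebrafish, many tissues hold clocks that light can set directly.

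Among the 65 features, 48 carried a gene name and 17 had only a description, or none. The ratio of the lowest night to the highest day value ran from 1.3 to 8.85 with a median of 1.62, was at least 2 in 16 features, at least 3 in 10 and at least 5 in 3, and was below 1.5 in 21. The night to day ratio of mean CPM ran from 1.75 to 134 with a median of 3.76 in control brains, the 134 being that of the purpurin-like DN18533, which was 22.8 without control night replicate 4, and from 1.76 to 46 with a median of 3.57 in ALAN brains. It was larger under ALAN in 32 features and smaller in 33. Over all features with a mean CPM of at least 1, every night value lay above every day value in 279 (1.52%). The same rule with day and night exchanged found 38 features.

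The spread among brains differed widely between the 65 features. ADAMTS5, a secreted protease that cleaves aggrecan, was the tightest, with a coefficient of variation of 5.36% over the night brains and 3.27% over the day brains. The purpurin-like lipocalin DN18533 was the most scattered, at 225% and 110%. The median coefficient of variation was 24.7% at night and 30.3% by day, and it was larger by day in 39 features. Control day replicate 1 gave the lowest day value in 24 features, and ALAN day replicate 1 the highest in 21. At night, control replicate 1 gave the lowest value most often, in 18 features, and ALAN replicate 4 the highest, in 19. Just inside the threshold stood SLC3A2, TIMD4 and OPLAH at ratios of 1.31, 1.31 and 1.3, and just outside stood SSFA2, PGM1 and FDX1 at 1.29, 1.28 and 1.28.

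**Figure D1:**
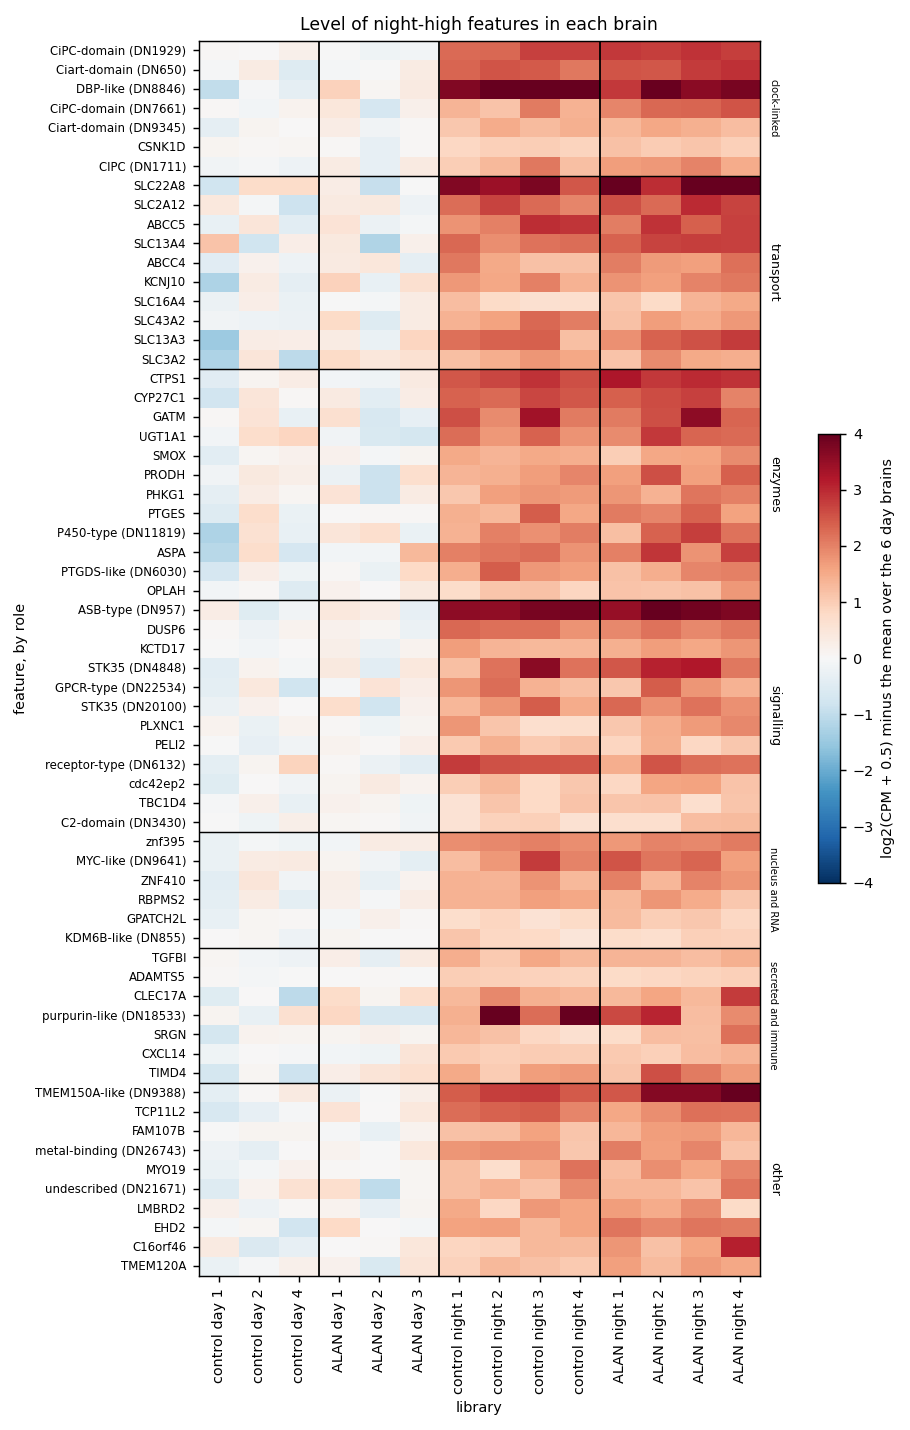
Each row is a feature, grouped by role (64 of the 65 are drawn), and each column a brain. Colour gives log2(CPM + 0.5) minus the feature's mean over the 6 day brains, and is capped at the ends of the scale. All 8 night columns are red in all 64 rows, while the depth of the red varies between rows and, in rows such as the purpurin-like lipocalin, between brains of a group.

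Total expected counts ran from 14942952 to 23051193, and the control day libraries were the smallest as a group. Of the 16 neuron marker features all reached a mean CPM of at least 1, and their summed level ran from 1623 to 2289 CPM, so markers of the labelled tissue were present in every brain. Some brains stood apart in markers of other tissues: pituitary markers summed to 1526 CPM in ALAN night replicate 2, and to 1181 and 882 in ALAN day replicates 2 and 1, photoreceptor markers to 1926 CPM in control night replicate 4, and muscle markers to 1015 and 912 CPM in control day replicates 1 and 4, against 287 to 464 in the other 12. These brains take part in the values below.

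Features linked to the clock by name or domain made up 7 of the 65, in addition to the names left out. Of the 4 features with a CiPC domain, 3 met the rule. The unnamed feature DN1929, described as a clock-interacting circadian protein, stood at 12.5, 12.3 and 14.1 CPM in control day brains, 11.9, 10.8 and 11.2 in ALAN day, 60.5, 61.2, 83.6 and 82.6 in control night, and 88.0, 85.2, 92.5 and 85.5 in ALAN night brains. Its control night mean was 5.54 times the control day mean, and its ALAN night mean was 7.78 times the ALAN day mean. The control night values fell into a lower and a higher pair, and all 4 ALAN night values lay above both. DN7661 with the same domain ran from 0.75 to 2.23 CPM by day and from 3.94 to 11.1 at night, and CIPC (DN1711) from 5.15 to 8.59 by day and from 13.5 to 30.0 at night. The fourth, a further CIPC feature, DN5537, had a night to day ratio of means of 1.06.

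Of the 4 features with a Ciart domain, those without the name were night-high. DN650 stood at 1.89, 2.60 and 1.22 CPM in control day brains, 1.86, 1.95 and 2.59 in ALAN day, 11.9, 13.6, 13.2 and 10.1 in control night and 13.6, 13.4, 16.7 and 18.2 in ALAN night brains. DN9345 ran from 39.8 to 63.3 CPM by day and from 109 to 150 at night. The others carry the left-out name, and there the ratio of the lowest night to the highest day value was 37.7 in one and 0.65 in the other, although the night to day ratio of means of the latter, DN1024, was 6.77 beside 6.86 for DN650. Of the 8 features with either domain, DN5537 alone had a ratio of means near 1.

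An unnamed basic leucine zipper feature described as the D-box binding protein of the albumin promoter, DN8846 (DBP-like), stood at 8.78, 17.3 and 13.8 CPM in control day, 34.4, 18.7 and 22.8 in ALAN day, 236, 352, 301 and 316 in control night and 130, 285, 222 and 252 in ALAN night brains. The night to day ratio of means was 22.6 in controls and 8.77 under ALAN. The ALAN day values all lay above the control day values, and 1 ALAN night brain, replicate 1, lay well below the others. CSNK1D, casein kinase 1 delta, which phosphorylates period proteins, ran from 37.5 to 50.4 CPM by day and from 84.0 to 107 at night, a small but tight difference. A second CSNK1D feature on the same Trinity cluster had a ratio of means of 1.25.

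The largest ratio of lowest night to highest day value, 8.85, belonged to DN957 in the signalling group, which has ankyrin repeats and a SOCS box, the build of an adaptor of cullin ubiquitin ligases. It stood at 7.48, 4.16 and 5.41 CPM in control day, 8.25, 7.44 and 4.70 in ALAN day, 78.2, 76.7, 91.0 and 93.0 in control night and 73.0, 117, 94.1 and 86.9 in ALAN night brains. DUSP6, the phosphatase that removes the activating phosphates of ERK kinases, stood at 72.3, 60.5 and 77.6 CPM in control day, 77.9, 73.2 and 58.7 in ALAN day, 347, 323, 322 and 244 in control night and 264, 315, 268 and 301 in ALAN night brains. Neither feature showed separate levels by treatment at either time. A second DUSP6 feature from the same Trinity component, DN3438_c0_g1, went the other way, with a night to day ratio of means of 0.68. Whether reads of this gene were divided between the pair was not tested.

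The other 10 signalling features had ratios from 1.31 to 2.1. KCTD17, an adaptor of a cullin ubiquitin ligase, ran from 24.6 to 34.1 CPM by day and from 71.8 to 100.2 at night. Both features named STK35, a serine/threonine kinase, met the rule: DN4848 ran from 0.42 to 1.17 CPM by day and from 2.35 to 14.5 at night, and DN20100 from 2.12 to 6.88 and from 10.9 to 23.9. A pair of rhodopsin-family receptors without a name, DN22534 and DN6132, ran at night from 1.86 to 5.47 CPM and from 14.9 to 38.5, against at most 1.12 and 9.95 by day. PELI2, a ubiquitin ligase of interleukin and Toll-like receptor signalling, PLXNC1, a semaphorin receptor, cdc42ep2, an effector of the GTPase CDC42, TBC1D4, a Rab regulator of glucose transporter traffic in mammals, and the C2-domain feature DN3430 had control night to day ratios of means from 1.81 to 2.72. Further features named PELI2 had night to day ratios of means of 0.83 and 0.68, and a further PLXNC1 feature had 2.81.

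Enzymes made up 12 of the features. CTPS1, which makes CTP from UTP, stood at 0.41, 0.85 and 1.02 CPM in control day, 0.65, 0.61 and 1.1 in ALAN day, 6.49, 7.46, 8.67 and 7.04 in control night and 11.1, 8.43, 9.36 and 8.68 in ALAN night brains. Its ratio of means was 9.76 in controls and 12 under ALAN, and the pattern was uniform over brains. CYP27C1, which in zebrafish converts retinol to dehydroretinol, ran from 0.82 to 2.61 CPM by day and from 8.25 to 14.4 at night. GATM, the enzyme of the committed step of creatine synthesis, ran from 0.85 to 2.74 by day and from 7.32 to 24.3 at night.

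Several of the enzymes act on arginine, proline and polyamines or on prostaglandins. GATM, SMOX (spermine oxidase) and PRODH (proline dehydrogenase) carry the KEGG pathway of arginine and proline metabolism, 3 of the 65 features against 60 of the 18358. SMOX ran from 68.9 to 104 CPM by day and from 185 to 346 at night, and PRODH from 3.66 to 11.6 and from 18.9 to 45.3. Another PRODH feature, DN9997, had a night to day ratio of means of 1.43. PTGES, prostaglandin E synthase, the P450-type feature DN11819 and the lipocalin DN6030, described as prostaglandin D2 synthase b, carry the arachidonic acid pathway, 3 of the 65 against 44 of the 18358. In mammals prostaglandin D2 made by this enzyme in the meninges and choroid plexus promotes sleep. DN6030 stood at 107, 208 and 153 CPM in control day, 178, 144 and 296 in ALAN day, 466, 922, 571 and 535 in control night and 388, 467, 672 and 703 in ALAN night brains. One ALAN day brain, replicate 3, came within 1.31-fold of the lowest night brain. PTGES ran from 1.07 to 3.14 CPM by day and from 5.03 to 11.5 at night, and DN11819 from 0.42 to 2.96 and from 4.45 to 14.3.

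UGT1A1, which conjugates bilirubin and other lipophilic compounds to glucuronic acid, stood at 4.54, 8.26 and 9.29 CPM in control day, 4.37, 3.02 and 2.84 in ALAN day, 24.7, 17.3, 27.1 and 18.4 in control night and 19.7, 37.5, 26.7 and 25.7 in ALAN night brains. The ALAN day values all lay below the control day values, while the treatments overlapped at night. Another UGT1A1 feature, DN46673, at a mean CPM of 0.37, had a night to day ratio of means of 0.82. PHKG1, a catalytic subunit of phosphorylase kinase, ASPA, which splits N-acetylaspartate, and OPLAH, 5-oxoprolinase of the glutathione cycle, had control ratios of means of 4.00, 4.84 and 2.60.

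**Figure D2:**
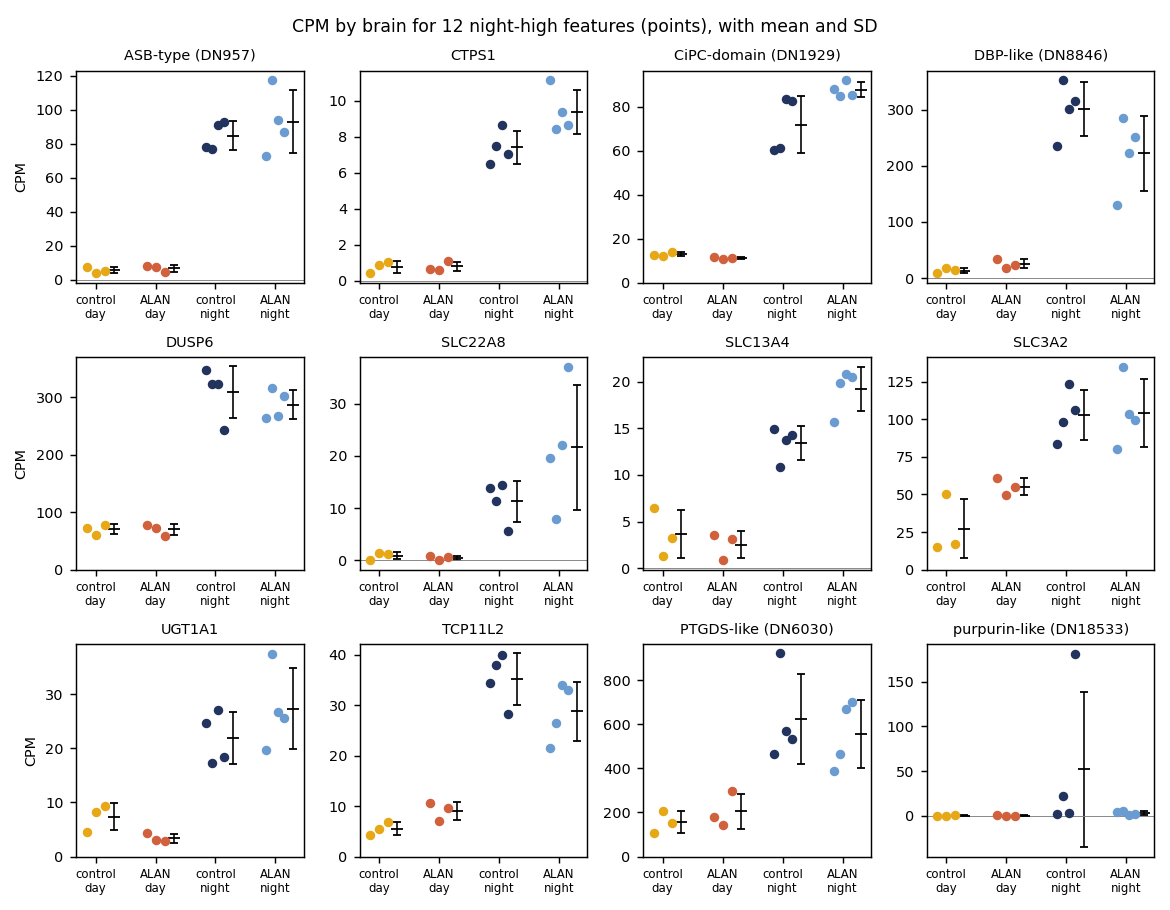
Points are CPM in single brains on a linear axis, by group, with the group mean and SD (n = 3, 3, 4 and 4) as a dash and bar beside them. The night and day groups stand apart in each panel, as the rule asks, while ALAN and control points mix in most panels. The scale of the purpurin-like panel is set by 1 control night brain.

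Transporters and channels made up 10 of the 65 features. Names of the SLC and ABC transporter families were carried by 9 of the 65 (13.8%) and by 400 of the 18358 features (2.18%). SLC22A8, an organic anion transporter of the blood-brain and blood-cerebrospinal fluid barriers in mammals, stood at 0.13, 1.35 and 1.32 CPM in control day, 0.84, 0.08 and 0.59 in ALAN day, 13.8, 11.3, 14.4 and 5.69 in control night and 19.6, 8.02, 22 and 37.0 in ALAN night brains. The night values of the treatments overlapped, with the lowest in control replicate 4 and the highest in ALAN replicate 4. A second SLC22A8 feature, DN8652, had a night to day ratio of means of 53.1 but missed the rule because a night brain was at 0.

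The exporters of organic anions and cyclic nucleotides ABCC5 and ABCC4 were both included. ABCC5 ran from 2.02 to 4.43 CPM by day and from 11.4 to 25.7 at night, and ABCC4 from 4.91 to 9.77 and from 16.2 to 33.7. A second ABCC5 feature fell just short, with a ratio of 1.26. Further ABCC4 features had night to day ratios of means of 0.96, 1.23 and 0.81, at mean CPM of 2.12, 0.80 and 0.65. SLC2A12, a facilitative glucose transporter, ran from 0.38 to 1.60 CPM by day and from 5.59 to 12 at night. SLC13A4, a sodium-sulfate cotransporter, and SLC13A3, a sodium-dicarboxylate cotransporter, are on the same Trinity component. SLC13A4 stood at 6.44, 1.31 and 3.24 CPM in control day, 3.60, 0.87 and 3.13 in ALAN day, 14.9, 10.8, 13.8 and 14.3 in control night and 15.7, 19.8, 20.8 and 20.5 in ALAN night brains, so that the ALAN night brains lay above all control night brains. SLC13A3 ran from 0.38 to 3.87 CPM by day and from 5.07 to 16.5 at night.

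The amino acid transporters among them were SLC43A2, which carries large neutral amino acids, and SLC3A2, the heavy chain shared by several amino acid exchangers. SLC3A2 stood at 14.8, 50.1 and 17.1 CPM in control day, 61.1, 49.5 and 54.9 in ALAN day, 83.8, 98.3, 123 and 106 in control night and 79.9, 135, 104 and 99.2 in ALAN night brains. Control day replicate 2 was as high as the ALAN day brains, and the remaining control day brains were far lower. A second SLC3A2 feature, DN900, had a ratio of means of 1.03. SLC43A2 ran from 2.62 to 7.2 CPM by day and from 9.53 to 21.4 at night, and another SLC43A2 feature had a ratio of means of 2.29. KCNJ10, the inward rectifier potassium channel of glia, ran from 6.02 to 29.1 CPM by day and from 39.9 to 66.7 at night, and a second KCNJ10 feature had a ratio of means of 2.23. SLC16A4, of the monocarboxylate transporter family, ran from 0.53 to 1.06 CPM by day and from 1.45 to 3.05 at night.

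Nuclear and RNA-binding proteins made up 6. The zinc finger protein znf395 stood at 44.6, 50.7 and 47.9 CPM in control day, 50.5, 67.4 and 66.4 in ALAN day, 198, 207, 221 and 198 in control night and 179, 216, 206 and 229 in ALAN night brains, one of the narrowest night groups with a coefficient of variation of 7.54%. DN9641, described as a homologue of the growth regulator MYC, ran from 1.76 to 3.27 CPM by day and from 6.47 to 20.1 at night. ZNF410, a zinc finger transcription factor, and RBPMS2, an RNA-binding protein, had control ratios of means of 2.80 and 3.18. Further ZNF410 features, DN8793 and DN17225, had night to day ratios of means of 0.86 and 1.13, at mean CPM of 15.9 and 0.66. For a further feature named ZNF395, DN9031, this ratio was 1.29. GPATCH2L and DN855, described as the histone demethylase KDM6B, had the lowest of this group, 1.75 and 1.84. Features for transcription (COG category K) were 4.62% of the 65 and 8.51% of the 18358, and those for secondary metabolites (category Q) were 6.15% and 1.1%. The names left out, among them the transcription factor TEF, are absent from the 65 but counted in the 18358. The shares for category K are therefore not like for like.

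Secreted and immune proteins made up 8. TGFBI, a matrix protein, ran from 1.43 to 2.68 CPM by day and from 4.64 to 6.8 at night, and ADAMTS5 from 4.20 to 4.61 and from 7.86 to 9.35. CXCL14, a chemokine, ran from 40.1 to 66.2 CPM by day and from 88.2 to 119 at night.

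Of the immune features, TIMD4 is a receptor of macrophages for dying cells, SRGN is the granule proteoglycan serglycin and CLEC17A is a lectin. The feature named TIMD4 is described as hepatitis A virus cellular receptor 1, so its name and its description differ. TIMD4 ran from 0.63 to 2.75 CPM by day and from 3.59 to 11.6 at night, SRGN from 7.83 to 15.1 and from 20.4 to 61.4, and CLEC17A from 0.43 to 2.68 and from 4.19 to 12.9. Another CLEC17A feature had a night to day ratio of means of 3.08. The summed level of 8 microglia and macrophage markers, none of them among the 65, had a night to day ratio of means of 2.55. It ran from 58.2 to 74.5 CPM in control day, 72.9 to 182 in ALAN day, 141 to 282 in control night and 131 to 331 in ALAN night brains. None of these markers was at 0 in all libraries. The part of these cells in the result was not tested, and in whole-brain libraries fewer cells of a type and less RNA per cell cannot be told apart.

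The purpurin-like lipocalin DN18533, of a family of retinol carriers known from the fish retina, stood at 0.33, 0.13 and 0.70 CPM in control day, 0.89, 0 and 0 in ALAN day, 1.59, 21.7, 3.19 and 181 in control night and 4.29, 5.91, 1.32 and 2.36 in ALAN night brains. Control night replicates 2 and 4 were far above all other brains. The same replicates had the highest summed level of the 15 photoreceptor markers of eye or pineal, 386 and 1926 CPM, against 36.4 to 272 in the other 12 brains. None of these markers was at 0 in all libraries, and their part in the level of DN18533 was not tested.

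The remaining 10 features belonged to no such group. DN9388, described as similar to TMEM150A, a membrane protein, stood at 0, 0.18 and 0.35 CPM in control day, 0.06, 0.15 and 0.27 in ALAN day, 3.06, 3.99, 4.06 and 3.12 in control night and 3.19, 7.93, 7.91 and 10.4 in ALAN night brains. TCP11L2, of a family named for a testis protein of the mouse, stood at 4.30, 5.51 and 6.81 CPM in control day, 10.5, 7.08 and 9.59 in ALAN day, 34.5, 37.9, 39.9 and 28.3 in control night and 21.5, 26.5, 34.0 and 33.0 in ALAN night brains. The ALAN brains lay above all controls by day and overlapped them at night. FAM107B ran from 137 to 187 CPM by day and from 364 to 560 at night. EHD2, a coat protein of caveolae, ran from 0.87 to 3.56 by day and from 5.19 to 9.74 at night. MYO19, a myosin of mitochondria, LMBRD2, TMEM120A, C16orf46, the metal-binding feature DN26743 and the feature without a description, DN21671, had control ratios of means from 2.36 to 3.92. Another LMBRD2 feature, DN4840, had a night to day ratio of means of 1.00.

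Summed markers of the brain compartments listed here had night to day ratios from 0.91 to 1.5. That of the microglia and macrophage markers given above was 2.55. In each list the day and night ranges overlapped when the treatments were pooled, and the difference was not tested. In control brains alone the ranges stood apart for microglia and macrophages, endothelium, leptomeninges and astroglia. Endothelial sums were 66.4 to 97.4 CPM by day and 125 to 147 at night. Leptomeningeal sums were 89.8 to 149 and 159 to 185, and astroglial sums 3200 to 6063 and 6438 to 6679. In ALAN brains only endothelial sums stood apart, at 99.9 to 128 and 130 to 134 CPM. The summed level of 10 endothelial markers ran from 66.4 to 97.4 CPM in control day and from 99.9 to 128 in ALAN day brains. At night it ran from 125 to 147. All ALAN day sums thus lay above all control day sums. In edgeR's test 3 of these 10 features had an unadjusted p under 0.05 for ALAN by day, beside 6.92% of all features. By the same measure 14 of 15 liver and 4 of 7 muscle features did so by day. For ALAN at night, 11 of 15 liver, 11 of 14 photoreceptor and 3 of 7 muscle features did so, beside 4.61% of all features. None of these passed after adjustment. The sum of 16 leptomeningeal markers ran from 89.8 to 166 CPM by day and from 159 to 206 at night, and the treatments overlapped by day. In the endothelial and leptomeningeal lists, the highest day brain was above the lowest night brain. The 6 astroglial and radial glial features summed to 3200 to 6063 CPM by day and 5828 to 7330 at night. Control day replicate 1 was lowest in the endothelial, leptomeningeal and astroglial lists. The sums for neurons and oligodendrocytes had night to day ratios of 0.91 and 0.98, and those for the endothelium, leptomeninges and astroglia of 1.40, 1.42 and 1.31. The sum of 4 choroid plexus features had a ratio of 1.5, at levels from 2.76 to 8.84 CPM. Over single features with a mean CPM of at least 1, the median night to day ratio was 1.04. SLC13A4, SLC13A3, SLC22A8, DN6030, KCNJ10, ABCC4 and EHD2, known from glia, barriers or vessels in mammals, are in none of these lists. They were picked from the night-high features, which the rule chose for their night excess. Their control night to day ratios of means, from 3.38 to 12.1, are therefore not comparable with those of the marker sums. The part of the cells named here in the levels was not tested.

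**Figure D3:**
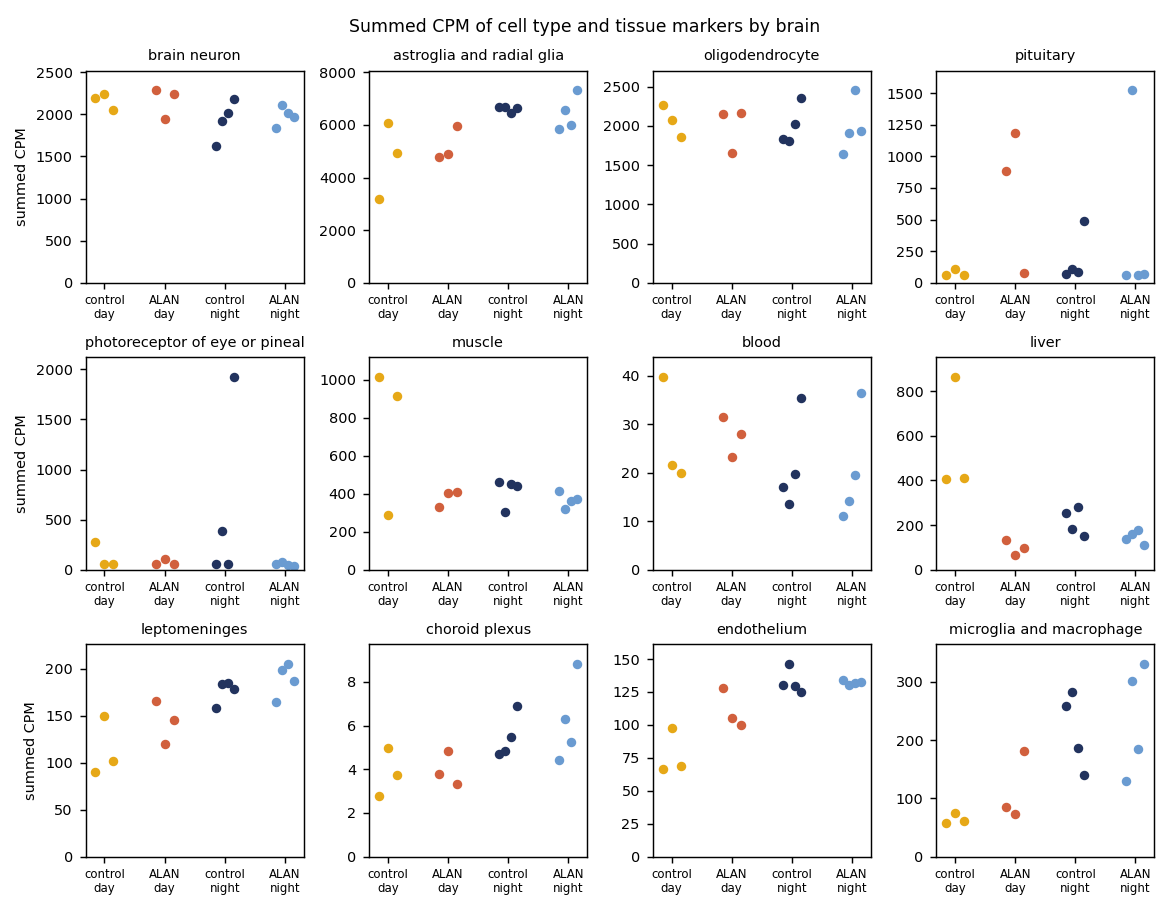
Points are the summed CPM of each marker list in single brains, on linear axes that start at 0, by group. Microglia and macrophage, endothelial and leptomeningeal markers have their lowest sums in control day replicate 1, and control night replicate 4 stands alone at 1926 CPM in photoreceptor markers.

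Of 7 gene lists, 5 held none of the 65: those of 21 glucocorticoid-induced features, 30 of FOXO and fasting, 12 of light induction and DNA repair in fish, 8 of cold and RNA binding and 10 of sleep and melatonin. Among 45 features of clock outputs in vertebrates 2 met the rule, CSNK1D and CIPC, and among 30 immediate-early features 1, DUSP6. Over the 18358 features with a mean CPM of at least 1, 0.425% met the level and ratio before names were left out. In edgeR's test, 0 features of these lists were called in any contrast of ALAN with control, except 3 immediate-early features. These 3 of 30 were higher under ALAN at night, beside 6 of all 20782 features (0.0289%) called in that contrast. At an unadjusted p under 0.05 these lists held from 0 to 12 features per contrast. The 12 were among the 30 immediate-early features for ALAN at night, beside 4.61% of all features. In the interaction 9 of these 30 were under 0.05, beside 6.15% of all features. DUSP6 itself differed by -0.19 on the log2 scale at night (SE 0.146, adjusted p = 1.00).

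To ask how light at night bears on these features, ALAN and control brains were compared at each time in edgeR's quasi-likelihood fit over the 14 libraries, with p-values adjusted over 20782 features. The choice did not use the treatment, but it asks every night brain to be high and every day brain to be low, which limits the effects of ALAN that a chosen feature can show. At night 0 of the 65 passed, against 6 of all features (0.0289%). At an unadjusted p under 0.05, 3 were higher and 2 lower, 5 of 65 against 4.61% of all features. The median log2 fold change was 0.15, against -0.01 over all features, and 44 of the 65 were positive, against 48.8%. DESeq2 and limma also called 0 of the 65.

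Some of the night effects were uneven between brains. C16orf46 was 1.09 higher under ALAN on the log2 scale (SE 0.486, adjusted p = 1.00), with values of 1.69, 1.80, 2.47 and 2.39 CPM in control and 3.57, 2.22, 3.08 and 9.79 in ALAN night brains, and without ALAN night replicate 4 the difference was 0.43. The CiPC-domain feature DN7661 was 0.73 higher (SE 0.296, adjusted p = 0.999), at 4.61, 3.94, 8.02 and 4.83 CPM in control and 7.28, 9.44, 9.67 and 11.1 in ALAN night brains. Leaving out each library gave 0.61 to 1.00 for DN7661. The purpurin-like DN18533 had a difference of -3.96 (SE 1.21, adjusted p = 0.920), which was -1.42 without control night replicate 4. For the DBP-like DN8846 it was -0.52 (SE 0.229, unadjusted p = 0.0405 in edgeR's test, not passed after adjustment). Leaving out each library gave -0.63 to -0.32 for DN8846. All 4 ALAN night values lay above all control night values in 3 features, DN1929, SLC13A4 and EHD2, beside 2.73% of all features, and below them in 0, beside 0.517%.

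By day 0 of the 65 passed, with a smallest adjusted p of 0.423, against 1 of all features (0.00481%). At an unadjusted p under 0.05, 7 were higher and 1 lower, 8 of 65 against 6.92% of all features, and DESeq2 and limma called 0 of the 65. The median log2 fold change was 0.16, against 0.01 over all features, and 48 of the 65 were positive, against 51.7%. UGT1A1 had the smallest p, at -1.09 on the log2 scale (SE 0.292, adjusted p = 0.423). The summed level of 15 liver markers was also lower under ALAN by day, at 67.6 to 134 CPM against 406 to 864 in control brains. At night this sum ran from 149 to 281 in control and from 112 to 177 in ALAN brains. Its night to day ratio of means over both treatments was 0.55. The part of the liver markers in the level of UGT1A1, an enzyme of the liver as well, was not tested. The DBP-like DN8846 was at 0.94 (SE 0.275, adjusted p = 0.461), TCP11L2 at 0.72 (SE 0.215, adjusted p = 0.476) and SLC3A2 at 1.05 (SE 0.335, adjusted p = 0.526). SLC3A2 turned on control day replicate 2: without it the difference was 1.78 with an adjusted p of 0.0191 in edgeR's test, and its adjusted p ran from 0.0191 to 0.863 over 22 alternatives. The immune features TIMD4 and CLEC17A were at 1.24 (SE 0.438, adjusted p = 0.556) and 1.35 (SE 0.506, adjusted p = 0.583). By day the microglia and macrophage sum was 58.2, 74.5 and 60.8 CPM in control and 85.9, 72.9 and 182 in ALAN brains. The treatments overlapped in this sum, and ALAN day replicate 3 stood apart. Its part in the levels of TIMD4 and CLEC17A was not tested.

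The day values of ALAN brains lay above all control day values in 6 features, DN8846, TCP11L2, CLEC17A, PELI2, cdc42ep2 and TIMD4, beside 4.01% of all features, and below them in 2, DN1929 and UGT1A1, beside 5.83%. PELI2 stood at 7.55, 5.97 and 6.85 CPM in control and 8.38, 7.89 and 9.12 in ALAN day brains. TIMD4 stood at 0.74, 1.66 and 0.63 against 1.93, 2.39 and 2.75 CPM, and CLEC17A at 0.88, 1.42 and 0.43 against 2.68, 1.56 and 2.60. Both are listed here with small values whose read number is unknown.

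**Figure D4:**
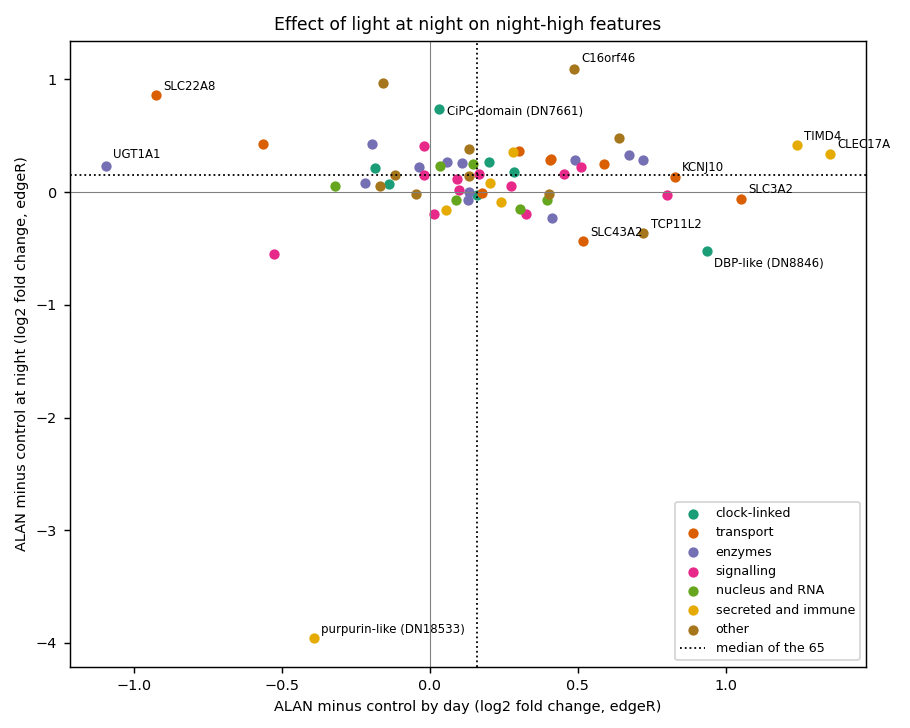
Each point is a feature (64 of the 65 are drawn), coloured by role, at its log2 fold change of ALAN over control by day (horizontal axis) and at night (vertical axis) from edgeR. Dotted lines give the medians of the 65, 0.16 and 0.15, and names mark features with an unadjusted p under 0.05 in a contrast, znf395 apart, and SLC22A8. No feature passed after adjustment in either direction.

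The interaction asks whether the night-day difference itself differed between treatments, and here too 0 of the 65 passed, with a smallest adjusted p of 0.596 (0 of all features, 0%). At an unadjusted p under 0.05, 6 features were found, 1 positive and 5 negative, against 6.15% of all features. The median was -0.11 on the log2 scale, against -0.02 over all features. In limma it was 0.07, against 0.07 over all features that limma tested. The DBP-like DN8846 had an interaction of -1.45 (SE 0.358, adjusted p = 0.596), its night-day ratio of means being 22.6 in controls and 8.77 under ALAN. DESeq2 called it with an adjusted p of 0.0404, the lowest of 21 alternatives, which reached 0.855. TCP11L2 was at -1.09 (SE 0.278, adjusted p = 0.596), with ratios of means of 6.34 in controls and 3.17 under ALAN. UGT1A1 went the other way, at 1.33 (SE 0.376, adjusted p = 0.596), with ratios of 2.97 and 8.03.

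SLC3A2, SLC43A2 and znf395 were the other features with an unadjusted p under 0.05, at -1.11, -0.95 and -0.46 on the log2 scale, with adjusted p-values of 0.737, 0.750 and 0.753. The day contrast and the interaction share the same day brains, so their values for a feature are not independent. Over the role groups, the median interaction was 0.07 in the 7 clock-linked features and -0.15 in the 10 transport features. Of these, 4 and 3 features were positive, beside 47.9% of all features, and the difference between the groups was not tested. In limma the transport features SLC2A12 and ABCC4 changed sign, from -0.12 and -0.11 in edgeR to 0.07 and 0.09. Within the clock-linked features the sign differed: DN1929, DN7661 and CSNK1D were positive, at 0.40, 0.70 and 0.21, and DN9345 and DN8846 negative, at -0.18 and -1.45. DN650 and CIPC (DN1711), at 0.07 and -0.10, changed sign under some alternatives. None of these passed the test.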

How the data were processed

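RNA of single brains was sequenced in paired reads of 150 bases from non-stranded libraries with molecular identifiers of 9 bases, per the labels' protocols. Trimmomatic 0.39, Bowtie2 and RSEM are named in the submitters' processing notes. The authors deposited expected counts (estimates, mostly not whole) for 21805 features in 14 libraries, and 0 columns belonged to other samples. Of these values, 98.5% equalled the column total times a number of parts per 1000000 with 2 decimals (tolerance 0.006, 6.30% by chance), as rounded abundances scaled to a total would, and in 296 features at 0 in at least 8 libraries the smallest other value had a median of 2.12. A value of 1 is thus not known to be 1 read, the depth behind a value is unknown, and no counting intervals are given. The authors' deposited annotation (per the file headers, from eggNOG-mapper 2.1.7) gives names, pathways and the bit score of the best match, from 152 to 2514 over the 65 features.

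CPM used column totals without further scaling. For tests, counts were rounded and filtered (filterByExpr, minimum count 10, minimum total 15), which kept 20782 features, removed 1023 and kept all 65. They were scaled by TMM (factors 0.870 to 1.08) and fitted with group means in edgeR 4.0.16 (glmQLFit and glmQLFTest, R 4.3.3, residual df 10), two-sided, with Benjamini-Hochberg adjustment and a threshold of 0.05. The fit was checked on simulated whole counts, which does not show how it behaves on rescaled abundances, as the deposited values may be. Alternatives were DESeq2 1.42.0, other scaling and filters, leaving out each library, a replicate block and, chosen after seeing the data, limma 3.58.1 on log2(CPM + 1). The p-values treat fish as independent although a group's fish may come from 1 colony, and measure only the spread between these brains.

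The 65 features, the gene lists and the markers were chosen with earlier results of these data known, and the leptomeningeal, choroid plexus, endothelial and microglial markers after the names of the features had been seen. Names that the list rule matched although they are other genes (RHOA, RHOB, BCL6B and CPD) were taken out. The naming rule took the 25 named features with the largest ratio, those past a test, list members, those beside the threshold, features sharing a name and the 5 unnamed features with the largest ratio. All others are named after their values had been seen. The 3 stranded assembly libraries were not analysed here. The values of 1 of the 65 features are not reported here.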

Additional observations from a re-analysis of the deposited data

Results flagged for a closer look

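In 8 of 130 groups of 4 night brains examined for the 65 features, the highest or lowest brain lay far from the others, where chance flags about 5%. The values were 94.1 CPM for KCTD17 in control night replicate 1, 9.47 CPM for the metal-binding feature DN26743 in control night replicate 4 (the lowest of its group), 11.5 CPM for PTGES in control night replicate 3, and 181 CPM for the purpurin-like DN18533 in control night replicate 4. In ALAN night replicate 4, CLEC17A stood at 12.9 CPM, the undescribed feature DN21671 at 3.94 and OPLAH at 7.52, each above the rest of its group. TBC1D4 was low in ALAN night replicate 3, at 8.33 CPM.

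By the same measure, the summed pituitary markers stood out in control night replicate 4 (491 CPM) and in ALAN night replicate 2 (1526 CPM), and the summed muscle markers were low in control night replicate 2 (302 CPM). The CiPC-domain feature DN1929 was higher under ALAN than in all control brains at night and lower than in all control brains by day. This split by brains was not tested as such; the interaction in edgeR, which asks whether the effect of ALAN differed between night and day, was 0.40 on the log2 scale (SE 0.186, adjusted p = 0.810).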

How the results depend on the processing

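With TMM-scaled CPM the rule took 57 features, 56 of them shared, losing DN11819, cdc42ep2, SRGN, CXCL14, GPATCH2L, DN3430, DN6030, DN855 and TIMD4 and gaining PGM1. A ratio of 2 left 16, a ratio of 1.2 gave 95 and a ratio of 1.5 gave 44. Leaving out each library gave 66 to 87, with all 65 among them. That the 65 stay says little, as leaving out a library cannot lower a feature's ratio of lowest night to highest day value. For ALAN at night, where 6 of all features passed, DESeq2 called 41, and leaving out each library gave 1 to 8 (1 without ALAN night replicate 3, control night replicate 1 or control night replicate 2, and 3 without ALAN night replicates 2 or 4 or control night replicate 4). For ALAN by day, where 1 of all features passed, DESeq2 called 137, limma 13, library totals without TMM 2, a fit on only the groups compared 2, and leaving out each library 0 to 6. For the interaction, where 0 of all features passed, DESeq2 called 58 and limma 4, and leaving out each library gave 0. Of the 65 features, 0 passed at night in each alternative. By day leaving out each library gave 0 to 1, the 1 being SLC3A2 without control day replicate 2 (6 of all features). In the interaction DESeq2 called 1, DN8846. The cause was not tested for any of these. The interaction of CIPC (DN1711), -0.10, was 0.08 in limma, 0.17 with the replicate block and 0.21 without control night replicate 3, and that of DN650, 0.07, was -0.18 to -0.02 without ALAN day replicate 1, ALAN night replicate 4, control day replicate 2 or control night replicate 4. The median interaction of the 65, -0.11, was 0.07 in limma, where the median over all features was also 0.07, against -0.02 in edgeR. Fits with the replicate number as a block called 6 of all features at night, 0 by day and 0 in the interaction, and 0 of the 65 in each. The labels do not say what a shared number means. Over 18 same-number pairs the correlation of deviations from the group mean ran from -0.17 to 0.10, with a median of 0.00099. Over 55 pairs with different numbers it ran from -0.15 to 0.16, with a median of -0.0035. These correlations cannot show whether fish with the same number shared a colony or a day.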
